A study of Mus musculus with 2 samples.

Results

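The receptors for interleukin-3 (IL-3), interleukin-5 (IL-5) and granulocyte-macrophage colony-stimulating factor (GM-CSF) are built from 5 chains in the mouse, and all 5 were among the 31053 genes counted in E-cadherin+ bone marrow cells. The chains were chosen by gene symbol as Il3ra, Il5ra and Csf2ra, the ligand-binding alpha chains of the IL-3, IL-5 and GM-CSF receptors, and Csf2rb and Csf2rb2, the beta chains. The study sorted E-cadherin+cKIT+ cells and E-cadherin+cKIT- cells from mouse bone marrow by flow cytometry and made 1 droplet single-cell RNA library from each. The labels give the strain as FVB, and the paper describes the cells as wild type and, for this experiment, as pooled from Vav-iCre;mTmG mice. In those mice a Vav promoter drives Cre in blood cells, and the mTmG allele switches from a red to a green fluorescent membrane protein where Cre has acted. The files do not separate the mice, so each sort stood for 1 sample and no difference below had a replicate check or a test.

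An alpha chain binds its own ligand, and signalling starts once it pairs with a beta chain, which carries the kinase JAK2 and leads to activation of STAT5. Csf2rb is the common beta chain shared by all 3 alpha chains, whereas Csf2rb2, found in mice, works with the IL-3 alpha chain only. IL-3 is known for the growth and survival of basophils and mast cells, IL-5 for those of eosinophils, and GM-CSF for those of granulocytes and macrophages.

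After filtering, 6479 of 6632 cKIT+ cells and 3662 of 3745 cKIT- cells were kept. The cKIT+ library held 91108781 unique molecular identifiers (UMIs) in these cells, with a median of 13039 a cell, and the cKIT- library held 22869169, with a median of 4417. The gene of the sorted receptor, Kit, was at 37.1 counts-per-million units (CPM, UMIs of a gene over all UMIs of the group) in the cKIT+ library and 0.875 CPM in the cKIT- library. The libraries shared 10 cell barcodes. Sequencing depth, RNA per cell and the sort cannot be told apart here.

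Cells were grouped by their level of 4 lineage genes. The Mcpt8 gate, named for a basophil protease, held 3052 cKIT+ cells (47.1%) and 2201 cKIT- cells (60.1%). In the cKIT+ library 278 cells passed the gate on Prg2, which encodes eosinophil major basic protein, 458 passed that on Elane, the neutrophil elastase of granulocyte-monocyte progenitors, and 289 passed that on Gzmb, a granule protease. Cells that passed several gates, 87 in the cKIT+ and 3 in the cKIT- library, were left out, and no cKIT- cell passed one of these other 3 gates alone. At a level of at least 20 CPM, the Mcpt8 gate held 8 of 10 basophil markers in the cKIT+ and 9 of 10 in the cKIT- library, the Prg2 gate 8 of 10 eosinophil markers and the Elane gate 8 of 8 progenitor markers. Each of these lists includes the gate's own gene. The whole cKIT+ library also held 8 of 10 basophil, 6 of 10 eosinophil and 8 of 8 progenitor markers. The whole cKIT- library held 9 of 10 basophil markers, so such counts cannot show what the gated cells are. The Prg2 gate also held 7 of 8 progenitor markers, with Mpo at 4895 CPM, and 7 of 10 basophil markers, and the Mcpt8 gate held 7 of 8 progenitor markers in the cKIT+ and 4 of 8 in the cKIT- library. All 6 neutrophil markers reached that level in each of the 4 gates of the cKIT+ library, with a summed level of 1087 CPM in the Prg2, 3527 CPM in the Mcpt8, 12658 CPM in the Gzmb and 20278 CPM in the Elane gate. The Gzmb gate held 5 of 8 mast cell markers, among them Cma1 at 414 CPM and Kit at 191 CPM, but the tryptases Tpsb2 and Tpsab1 were at 0 and the granulocyte gene S100a8 was at 3966 CPM, so it is called by its gene only. The part of these other markers in the results was not tested. A further gate, chosen after values were seen, took cells outside those gates by the summed level of Fcer1a, Ms4a2 and Cd200r3, which encode surface proteins of basophils. This Mcpt8-low FcεRI gate held 916 cKIT+ and 942 cKIT- cells, with Ms4a2 at 1120.3 and 2216 CPM, Fcer1a at 97.6 and 903 CPM and Cd200r3 at 7.26 and 719.5 CPM.

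Intervals below are exact 95% intervals of the counts and cover counting error only. UMIs tag 1 end of a transcript and were not scaled by length, so levels are compared between groups of cells and not between genes. In the hemoglobin gate (57 cKIT+ cells), where these receptors should be near absent, each chain but Il5ra had 4 to 6 UMIs, which came to between 11.6 and 17.5 CPM. These came from few cells, and 1 cell held between 66.7% and all of the UMIs of each chain, so the range is a rough guide. The B-lineage gate on Cd79a and Cd79b of the cKIT- library (227 cells) held Il3ra and Csf2rb2 at 7.03 CPM each, Csf2ra at 15.5 CPM and Csf2rb at 22.5 CPM. The B-lineage gate of the cKIT+ library (68 cells) held Il3ra at 22.6 CPM (10.8 to 41.6), from 10 UMIs. It held Csf2rb2 at 6.78 CPM, Csf2ra at 9.04 CPM and Csf2rb at 13.6 CPM. Values at or under the hemoglobin gate's range were read as background, though Il3ra in this B-lineage gate lay above that range.

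**Figure D1:**
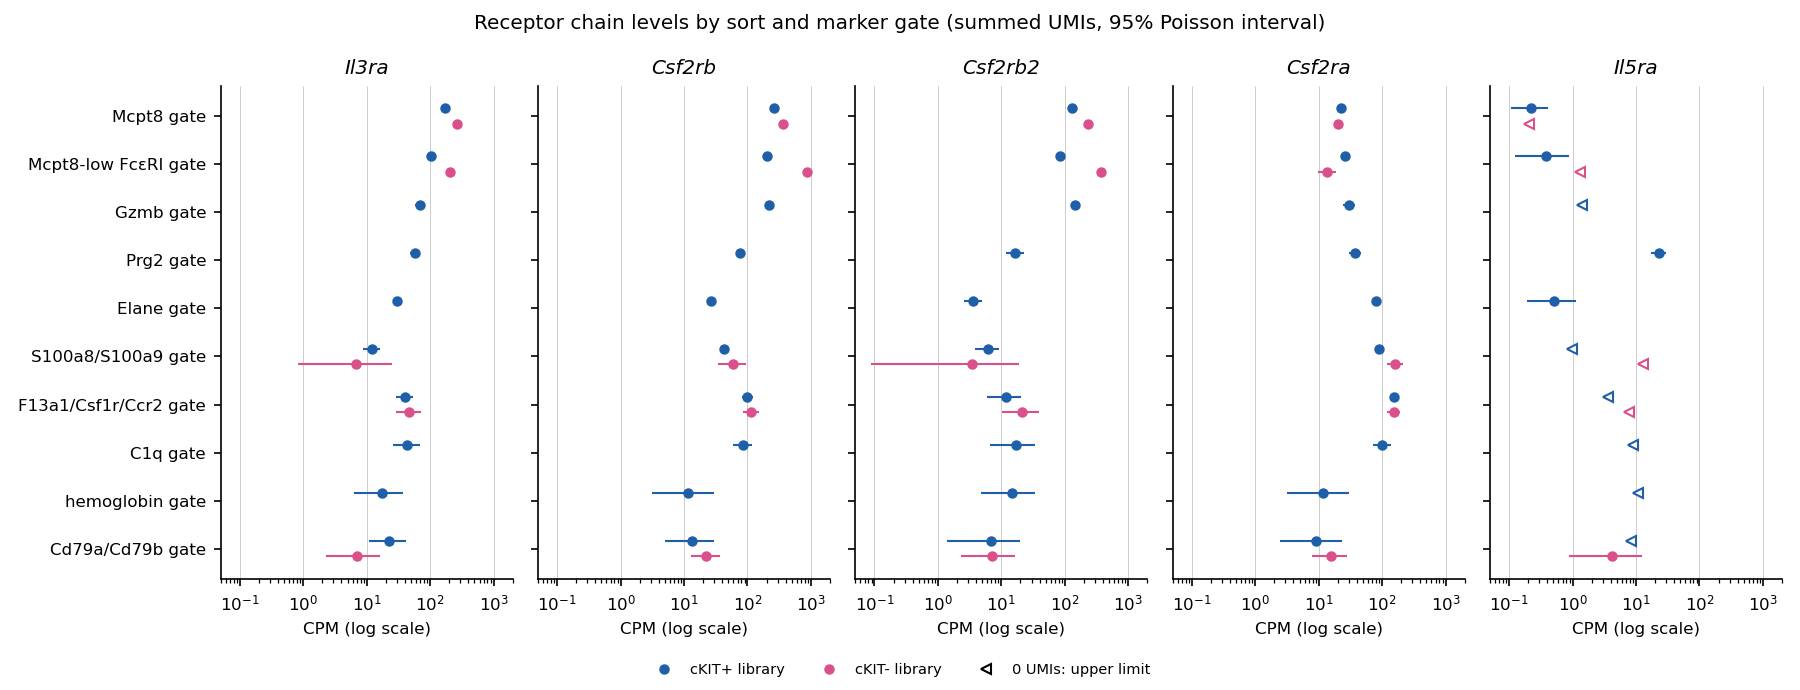
Level of each receptor chain in CPM (log axis) by marker gate (rows), in the cKIT+ library (blue) and the cKIT- library (pink). Points are summed UMIs of 1 library, bars are 95% Poisson intervals, and open triangles are upper limits where no UMI was found. Il3ra, Csf2rb and Csf2rb2 were highest in the Mcpt8 and Mcpt8-low FcεRI gates of the cKIT- library, Csf2ra in the F13a1/Csf1r/Ccr2 gate of both libraries and the S100a8/S100a9 gate of the cKIT- library, and Il5ra, at 23.0 CPM, in the Prg2 gate.

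Over whole libraries, Il3ra and both beta chains made up a larger part of the RNA of cKIT- cells, and Csf2ra and Il5ra a larger part of that of cKIT+ cells. Il3ra was at 114 CPM (112 to 116) in the cKIT+ and 241 CPM (235 to 247) in the cKIT- library, 2.12-fold higher in cKIT- (2.05 to 2.19). Csf2rb was at 188 CPM (185 to 191) against 419 CPM (411 to 428), 2.23-fold higher in cKIT- (2.17 to 2.29). Csf2rb2 was at 87.4 CPM (85.5 to 89.4) against 239 CPM (232 to 245), 2.73-fold higher in cKIT- (2.64 to 2.82). For all 3 genes the intervals of the sorts lay apart. Csf2ra ran the other way, at 36.4 CPM (35.2 to 37.7) in the cKIT+ and 23.7 CPM (21.8 to 25.8) in the cKIT- library, 1.54-fold higher in cKIT+ (1.40 to 1.69). Il5ra was rare in both, with 99 UMIs in the cKIT+ and 3 in the cKIT- library. Of the 4 chains that reached 10 CPM, 3 were past 2-fold lower in cKIT+, against 9.06% of all 8023 genes compared. A cKIT- cell held fewer UMIs in all, so the result depends on the scale. Counted as UMIs per cell, the log2 ratio of cKIT+ to cKIT- was 0.09 for Il3ra and 0.01 for Csf2rb, where it was -1.08 and -1.16 in CPM. For Csf2rb2 it was -0.28 per cell and -1.45 in CPM, and for Csf2ra 1.79 per cell and 0.62 in CPM.

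Within the Mcpt8 gate the same 3 chains were again at higher CPM in the cKIT- sort, by smaller ratios. Il3ra was at 169 CPM (165 to 173) in cKIT+ and 269 CPM (261 to 276) in cKIT- cells, a ratio of 1.59 (1.54 to 1.65). Csf2rb2 was at 131 CPM (128 to 135) and 236 CPM (229 to 243), a ratio of 1.80 (1.73 to 1.87). Csf2rb was at 265 CPM (260 to 270) and 369 CPM (361 to 378), a ratio of 1.40 (1.35 to 1.44). Csf2ra, at 22.2 CPM (20.8 to 23.6) and 20.3 CPM (18.2 to 22.4), lay above the range read as background. Its intervals overlapped each other and the hemoglobin gate's wide one (3.17 to 29.8), which rests on few UMIs. None of the 4 tested chains was past 2-fold, and 9.02% of all genes were. As UMIs per cell the direction was the reverse, with log2 ratios of cKIT+ to cKIT- of 0.19 for Il3ra, 0.38 for Csf2rb and 0.01 for Csf2rb2. The median cell of the gate had 14113 UMIs in the cKIT+ and 7710 in the cKIT- library.

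The share of cells with a UMI followed the CPM once every cell was thinned to 2000 UMIs. For Il3ra, 29.2% of cKIT+ and 42.0% of cKIT- cells of the Mcpt8 gate then held a UMI, and 85.5% and 79.3% did before thinning. For Csf2rb the thinned shares were 42.9% and 54.7% (94.1% and 90.4% before), and for Csf2rb2 24.2% and 37.5% (79.8% and 77.9% before). In the B-lineage gate on Cd79a and Cd79b, a type that makes little of these chains, the thinned shares in the cKIT- library were 0.917% for Il3ra, 4.59% for Csf2rb and 0.459% for Csf2rb2. The median B-lineage cell held 2681 UMIs before thinning. A UMI of Il3ra beside one of either beta chain was found in 16.9% of cKIT+ and 29.1% of cKIT- cells of the Mcpt8 gate at the thinned depth. The share expected from the single shares alone was not worked out, so these values do not show that the chains go together.

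The IL-3 alpha chain gene Il3ra lies at chr14:14346275-14356011 on the plus strand (GRCm38, GENCODE M21). An antisense gene, Gm48860, overlaps its 5' end, and the strand setting of the counting was not given in the sources used here, so reads of the overlap cannot be told apart. Among the gates of the cKIT+ library Il3ra was highest in the Mcpt8 gate. It was at 103 CPM (97.9 to 109) in the Mcpt8-low FcεRI gate, 68.2 CPM (58.6 to 78.9) in the Gzmb gate and 58.1 CPM (48.7 to 68.9) in the Prg2 gate. The last pair had overlapping intervals. The Elane gate was at 29.6 CPM (26.6 to 32.9), 5.70-fold lower than the Mcpt8 gate (5.11 to 6.36). This was above the range read as background, though inside the hemoglobin gate's wide interval (6.41 to 38.0), which rests on few UMIs. It also lay inside the interval of the cKIT+ B-lineage gate (10.8 to 41.6), which rests on 10 UMIs. RNA of Mcpt8 gate cells that would give the Elane gate its own Mcpt8 level would bring 1.73 CPM. This estimate takes Mcpt8 gate cells as the only source of stray RNA. In the hemoglobin gate it likewise gave 3.81 CPM where 17.5 CPM was measured, so it cannot decide how much of a level is stray RNA. The S100a8/S100a9 gate, at 12.2 CPM, was within the background. The Prg2 gate was 2.90-fold lower (2.45 to 3.47) and the Gzmb gate 2.47-fold lower (2.13 to 2.88) than the Mcpt8 gate.

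Il5ra, the IL-5 alpha chain, lies at chr6:106710357-106749037 on the minus strand. Its level followed the Prg2 gate. In that gate 53 UMIs came to 23.0 CPM (17.2 to 30.1), in the Mcpt8 gate of the same library 10 UMIs came to 0.220 CPM (0.106 to 0.405), and the ratio was 104.5 (52.6 to 230.4). The ratio was 66.8 with cells thinned to 2000 UMIs and 157 with every cell given the same weight. The Elane gate had 6 UMIs (0.515 CPM), and the Gzmb gate had none, where 3 UMIs would be 1.14 CPM. At 2000 UMIs a cell, 4.43% of Prg2 gate cells held an Il5ra UMI, and 14.8% did before thinning at a median of 5808 UMIs. No cell of the hemoglobin gate did, at a median of 4481 UMIs. This low share was of cells with a UMI and not of cells that express the gene.

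The 84 cKIT+ cells with an Il5ra UMI held at most 3 each, and 64 of them (76.2%) also held a UMI of the eosinophil granule genes Epx, Prg3 or Ear6, against 17.5% of all cKIT+ cells. UMIs of Cebpe, a transcription factor of granulocyte maturation, were in 67 of them (79.8%), against 22.1% of all. The myeloid gene Mpo was in 82 (97.6%), against 84.5% of all. Of the 64 cells with eosinophil granule genes, 41 were in the Prg2 gate. The pattern held outside the marker gates, where 18 of 25 such cells (72.0%) held Epx, Prg3 or Ear6 against 10.2% of all ungated cells. It was not seen in the Mcpt8 gate, where 1 of 10 such cells (10%) did against 17.3% of all its cells. In the Elane gate 1 of 5 did, against 11.35% of all its cells. In the cKIT- library the 3 cells with an Il5ra UMI each held Cd79a, a B cell receptor gene, and none held Epx, Prg3, Ear6 or Mpo. Within the Prg2 gate, in a split chosen after values were seen, Il5ra was at 29.2 CPM in the 166 cells with Prg2 at 10000 CPM of the cell or more and 17.0 CPM in the other 112, a ratio of 1.72 whose interval (0.957 to 3.16) spanned 1. Csf2rb went down in the same split, at 58.5 CPM in the high and 94.4 CPM in the other cells, a ratio of 0.619 (0.450 to 0.847).

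The promoter window of Il5ra is shown because this chain had the largest ratio between gates, and capitals mark a match to AGATAA, a form of the site bound by GATA factors. The window is the 250 bases before the start in the RefSeq table (GRCm38.p6), at chr6:106749038-106749287 on the minus strand.
Il5ra: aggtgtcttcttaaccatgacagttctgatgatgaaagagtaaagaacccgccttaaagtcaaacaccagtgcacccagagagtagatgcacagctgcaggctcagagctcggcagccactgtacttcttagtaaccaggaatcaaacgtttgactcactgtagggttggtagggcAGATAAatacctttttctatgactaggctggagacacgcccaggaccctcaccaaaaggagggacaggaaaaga
The match began 74 bases before the start. AGATAA on either strand was in 9.99% of all 32851 windows of that length, so a match is a description and not a site.

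Csf2ra, the GM-CSF alpha chain, lies at chr19:61223957-61228429 on the minus strand, and its order over the gates was unlike that of Il3ra. It was at 78.7 CPM (73.7 to 84.0) in the Elane gate, 3.55-fold higher than in the Mcpt8 gate (3.24 to 3.88). The Prg2 gate was at 37.3 CPM (29.9 to 46.1), 1.68-fold higher than the Mcpt8 gate (1.33 to 2.10). In the Gzmb gate it was at 30.3 CPM (24.0 to 37.7), a ratio of 1.37 (1.07 to 1.72), and this direction turned when cells were thinned to 2000 UMIs (log2 ratio -0.56 against 0.45). Myeloid gates chosen after values were seen held the highest levels. The F13a1/Csf1r/Ccr2 gate, on genes of monocytes, was at 154 CPM (131 to 180.1) in the cKIT+ and 151 CPM in the cKIT- library. The S100a8/S100a9 gate, on neutrophil marker genes, was at 90.7 CPM (81.3 to 101) in the cKIT+ and 162 CPM (119 to 216) in the cKIT- library. The gate on C1q genes of macrophages was at 101 CPM (72.5 to 136) in the cKIT+ library. The interval of this gate overlapped those of the Elane and S100a8/S100a9 gates. At 2000 UMIs a cell, 13.9% of Elane gate and 4.58% of cKIT+ Mcpt8 gate cells held a Csf2ra UMI (76.6% and 26.6% before thinning, at medians of 25352 and 14113 UMIs).

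**Figure D2:**
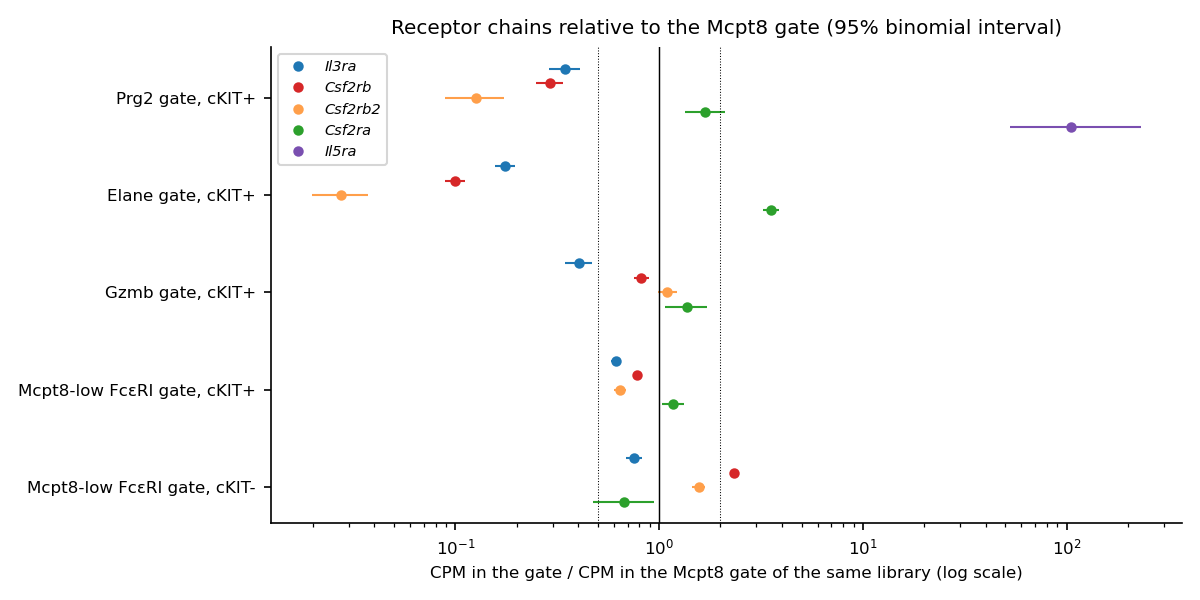
Ratio of each chain's CPM in a marker gate to its CPM in the Mcpt8 gate of the same library (log axis), with exact binomial 95% intervals and dotted lines at 2-fold. Csf2ra lay above 1 in the Prg2 and Elane gates where Il3ra, Csf2rb and Csf2rb2 lay below it, and Il5ra stood at 104.5 in the Prg2 gate (66.8 to 157 under other settings).

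The beta chain genes lie next to each other in opposite directions, Csf2rb2 at chr15:78282507-78305721 on the minus strand and Csf2rb at chr15:78325752-78353847 on the plus strand, with 20030 bases between them. Their longest transcripts were 90.8% identical in GENCODE M21, and the last 600 bases, which droplet reads mostly tag, 78.9% identical. No 56-base stretch of those last bases was shared, but shorter isoforms shared between 2.75% and 34.8% of theirs, so how counting split such reads between the 2 genes is uncertain.

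Csf2rb was lower in the Prg2 and Elane gates than in the Mcpt8 gate of the cKIT+ library and nearly level in the Gzmb gate. It was at 76.8 CPM (65.9 to 89.0) in the Prg2 gate, 3.45-fold lower (2.97 to 4.02). In the Elane gate it was at 26.4 CPM (23.5 to 29.5), 10.1-fold lower (8.98 to 11.3). This was above the range read as background, though inside the hemoglobin gate's wide interval (3.17 to 29.8). RNA of Mcpt8 gate cells that would give the Elane gate its own Mcpt8 level would bring 2.71 CPM of Csf2rb. In the hemoglobin gate this estimate gave 5.98 CPM where 11.6 CPM was measured, so it cannot decide how much is stray RNA. In the Gzmb gate it was at 216 CPM (199 to 235), 1.23-fold lower (1.13 to 1.33). The monocyte gene gate held it at 99.5 CPM and the C1q gate at 83.8 CPM, with overlapping intervals, and the S100a8/S100a9 gate held it at 42.8 CPM (36.5 to 49.9).

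Csf2rb2, the IL-3-specific beta chain, fell off more steeply. It was at 16.5 CPM (11.7 to 22.6) in the Prg2 gate, 7.96-fold lower than in the Mcpt8 gate (5.79 to 11.3). This level overlaps the range read as background, which for Csf2rb2 rests on 5 UMIs of the hemoglobin gate. The B-lineage gates held Csf2rb2 at 6.78 CPM in the cKIT+ and 7.03 CPM in the cKIT- library. With cells that passed several gates kept in each, the log2 ratio of the Prg2 to the Mcpt8 gate was -2.30 against -2.99. The Elane gate, at 3.61 CPM (2.60 to 4.87), was 36.4-fold lower (26.9 to 50.5) and under the background of the hemoglobin gate. Its log2 ratio of -5.19 was -6.05 with cells thinned to 2000 UMIs, -5.95 without the 5% of cells with most UMIs and -4.42 with cells of several gates kept. The RNA of Mcpt8 gate cells that would give the Elane gate its own Mcpt8 level would bring 1.34 CPM of Csf2rb2. In the hemoglobin gate this estimate gave 2.96 CPM where 14.6 CPM was measured, so it cannot decide how much is stray RNA. The Gzmb gate held it at 144 CPM (130 to 159.2), a ratio of 1.10 to the Mcpt8 gate whose interval (0.987 to 1.22) spanned 1 and whose direction turned under median-ratio scaling (log2 ratio -0.06 against 0.13). At 2000 UMIs a cell a Csf2rb2 UMI was in 27.2% of Gzmb gate cells and 0.441% of Elane gate cells.

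Against the Mcpt8 gate, 3 of the 5 chains tested in the Prg2 gate were past 2-fold lower and 1 past 2-fold higher, where 6.12% of genes were lower and 7% higher. The higher chain, Il5ra, met the 10 CPM minimum only through the Prg2 gate. It was at 0.220 CPM in the Mcpt8 gate, so that minimum fixed its call, which is not a result beside the 7%. In the Elane gate 3 of 4 were lower and 1 higher, where 9.93% were lower and 6.04% higher. Of the lower ones, Csf2rb2 was at 3.61 CPM in the Elane gate and met the minimum only through the Mcpt8 gate. The minimum fixed its call too, which is not a result beside the 9.93%. In the Gzmb gate 1 of 4, Il3ra, was past 2-fold lower and none higher, where 7.24% of genes were lower and 12.8% higher.

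Of the UMIs of both beta chains, Csf2rb2 made up 33.1% (32.4 to 33.8) in the cKIT+ and 38.9% (38.0 to 39.9) in the cKIT- Mcpt8 gate. The Gzmb gate was at 39.96% (36.8 to 43.2), whereas the Prg2 gate was at 17.7% (12.8 to 23.4) and the Elane gate at 12.03% (8.81 to 15.9). The intervals of the Prg2 and Elane gates overlapped each other and lay under those of the Mcpt8 and Gzmb gates. These 2 shares rest on 38 Csf2rb2 UMIs in the Prg2 and 42 in the Elane gate, at levels overlapping or under the range read as background. The hemoglobin gate's own share was 55.6% (21.2 to 86.3) of 9 UMIs. The S100a8/S100a9 gate of the cKIT+ library, at 12.4% (8.05 to 18.1), and the C1q gate, at 16.7% (6.97 to 31.4), were also low.

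**Figure D3:**
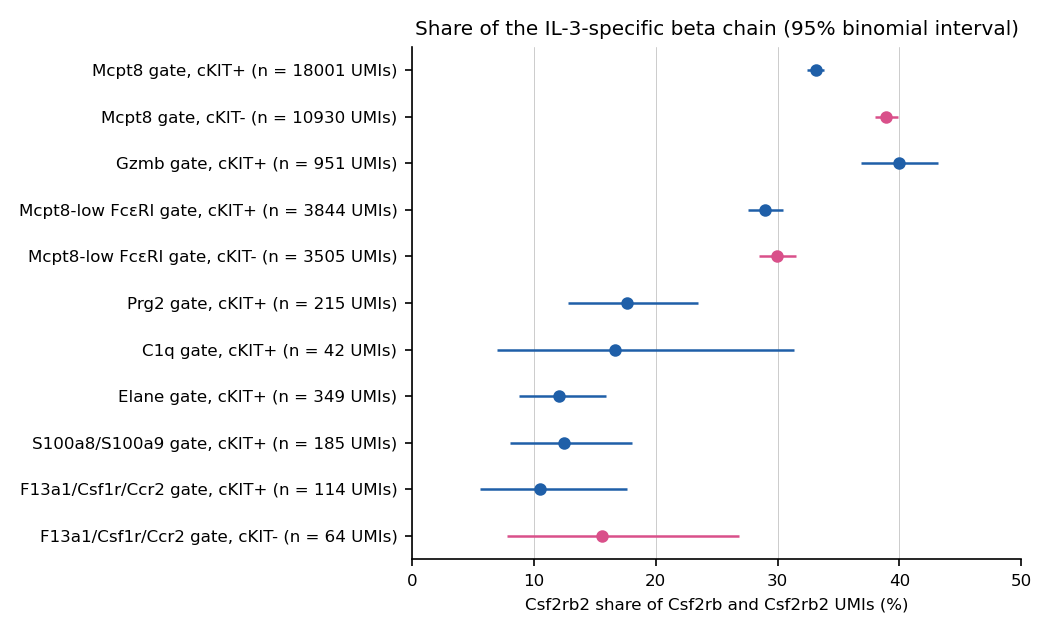
Share of Csf2rb2 among the UMIs of Csf2rb and Csf2rb2 in percent, by marker gate and library, with exact binomial 95% intervals. The Mcpt8, Gzmb and Mcpt8-low FcεRI gates sit between 29.0% and 39.96%, and the Prg2 and Elane gates at 17.7% and 12.03%. The Prg2 and Elane shares rest on 38 and 42 Csf2rb2 UMIs, at levels overlapping or under the range read as background.

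The promoter window of Csf2rb2 is shown because this chain had the steepest drop between gates among the abundant chains. It is the 250 bases before the RefSeq start at chr15:78305722-78305971 on the minus strand of GRCm38.p6, and capitals mark 2 matches, TTATCA, which reads as TGATAA on the other strand and is a form of the GATA factor site, and TTCTGAGAA, a form of TTCNNNGAA, the palindrome bound by STAT factors.
Csf2rb2: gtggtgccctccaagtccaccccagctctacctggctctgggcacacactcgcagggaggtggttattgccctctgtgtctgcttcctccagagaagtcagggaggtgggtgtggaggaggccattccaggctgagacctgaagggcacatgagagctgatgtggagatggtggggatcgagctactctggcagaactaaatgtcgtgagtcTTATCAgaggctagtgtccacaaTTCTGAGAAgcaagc
The matches began 38 and 15 bases before the start. TGATAA was in 7.94% and TTCNNNGAA in 7.02% of the 32851 windows, on either strand. The windows of Il3ra and Csf2ra held neither, nor AGATAA, TTGCNNCAA or TGTGGT, which were in 9.99%, 1.74% and 14.1% of windows. The window of Il3ra was 72.4% G or C with 27 CG pairs and that of Csf2ra 64.8% with 17, against 56.4% with 3 for Csf2rb2 and 48.0% with 4 for Il5ra.

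The Mcpt8-low FcεRI gate, chosen after values were seen, separated the beta chains from Il3ra in CPM, in the cKIT- library only. In the cKIT- library Csf2rb was at 860 CPM (826 to 894) in this gate, 2.33-fold higher than in the Mcpt8 gate (2.22 to 2.44), and Csf2rb2 at 368 CPM (346 to 391), 1.56-fold higher (1.46 to 1.67). Il3ra was lower there, at 203 CPM (187 to 219.9). Of 4 chains, 1 was past 2-fold higher than in the Mcpt8 gate, where 8.73% of genes were. In the cKIT+ library no chain of 4 was past 2-fold in this comparison, where 3.42% of genes were. There Il3ra, at 103 against 169 CPM, was lower than in the Mcpt8 gate, and so were both beta chains. Csf2rb was at 206 CPM (199 to 214) against 265 CPM and Csf2rb2 at 84.2 CPM (79.4 to 89.3) against 131 CPM. Csf2ra was at 25.9 against 22.2 CPM, with overlapping intervals. Between the sorts within this gate Csf2rb was 4.17-fold (3.94 to 4.40) and Csf2rb2 4.37-fold (4.01 to 4.75) higher in cKIT- cells, and 2 of 4 chains were past 2-fold lower in cKIT+, where 20.4% of genes were. The median cell had 13601 UMIs in the cKIT+ and 2992 in the cKIT- library. Counted as UMIs per cell, the direction between the sorts was the reverse for both beta chains. Csf2rb had 2730 UMIs in the 916 cKIT+ and 2455 in the 942 cKIT- cells, and Csf2rb2 had 1114 and 1050. Per cell, both were also lower than in the cKIT- Mcpt8 gate, whose 2201 cells held 6675 UMIs of Csf2rb and 4255 of Csf2rb2. Cells of this gate were not alike in other genes. At 20 CPM or more, 7 of 8 progenitor markers were held in cKIT+ (summed level 6196 CPM) and 4 of 8 in cKIT- cells (1164 CPM). Sort, depth and these differences cannot be told apart. Thinned to 2000 UMIs, 35.3% of cKIT+ and 78.6% of cKIT- cells held a Csf2rb UMI (88.0% and 89.3% before).

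The cKIT+ cells of the gate differed by Cd200r3, in a split chosen after values were seen. In the 867 cells with no Cd200r3 UMI, Csf2rb was at 197 CPM and Csf2rb2 at 81.7 CPM. In the 49 with at least 1, Csf2rb was at 727 CPM (624 to 841) and Csf2rb2 at 215 CPM (161 to 282). These 49 cells had a median of 3118 UMIs against 14019 in the 867, and held the chemokine gene Ccl3 at 1100.3 CPM against 10.5 CPM. In the cKIT- library 811 cells held Cd200r3 and 131 did not, and Csf2rb was at 864 CPM and 828 CPM in them. Csf2rb in the cKIT+ cells with Cd200r3 was thus closer to the level in cKIT- cells of the gate than to that in the other cKIT+ cells. The part of depth in this was not tested.

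Within the Mcpt8 gate the chains were read along Prss34, another basophil protease, in 3 bins split at 5000 and 20000 CPM of the cell. In cKIT+ cells Il3ra was at 139 CPM in the lowest, 155 CPM in the middle and 191 CPM in the highest bin, and Csf2rb2 at 108, 124 and 146 CPM. In cKIT- cells both beta chains ran the other way in CPM, Csf2rb at 703, 579 and 341 CPM and Csf2rb2 at 332, 325 and 225 CPM. The ratio of the highest to the lowest bin for Csf2rb was 1.14 in cKIT+ and 0.485 (0.442 to 0.534) in cKIT- cells. Il3ra in cKIT- cells was at 235, 277 and 269 CPM. The ratio between sorts of both beta chains was higher in the lowest than in the highest bin. Csf2rb was 2.85-fold (2.58 to 3.15) higher in cKIT- cells in the lowest bin and 1.21-fold (1.17 to 1.26) in the highest, and Csf2rb2 3.08-fold (2.66 to 3.57) and 1.54-fold (1.47 to 1.62). For Il3ra the ratio was 1.69 (1.42 to 1.99) in the lowest, 1.79 (1.59 to 2.02) in the middle and 1.41 (1.35 to 1.47) in the highest bin. Cells of like Prss34 were not alike in other genes. In the lowest bin Mpo was at 3255 CPM in cKIT+ and 147 CPM in cKIT- cells, Cd200r3 at 6.46 and 609 CPM, and Ccl3, a chemokine gene, at 40.1 and 2499 CPM, so sort and these differences cannot be told apart. Thinned to 2000 UMIs, 78.6% of cKIT- cells of the lowest and 50.9% of the highest bin held a Csf2rb UMI, and in cKIT+ cells 40.4% and 45.3% did. Median UMIs per cKIT- cell moved with the bins, at 3371, 4134 and 8929, and their part was not tested. Counted as UMIs per cell, both beta chains rose along the bins in cKIT- cells. Csf2rb had 479 UMIs in the 191 cells of the lowest and 5546 in the 1778 of the highest bin, and Csf2rb2 had 226 and 3664. Per cell, both were also higher in the cKIT+ than in the cKIT- sort in every bin.

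**Figure D4:**
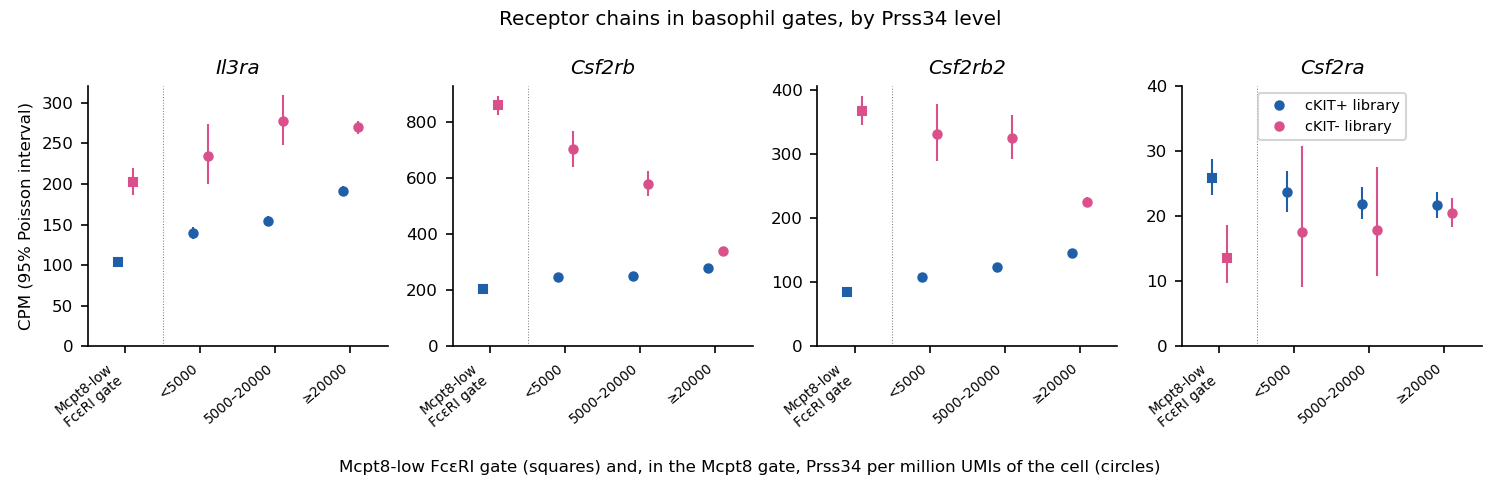
Level of 4 chains in CPM in the Mcpt8-low FcεRI gate (squares) and in 3 bins of Prss34 within the Mcpt8 gate (circles), for the cKIT+ and cKIT- libraries, with 95% Poisson intervals. Csf2rb in cKIT- cells goes from 860 CPM in the squares to 341 CPM in the highest bin, and in cKIT+ cells stays between 206 and 282 CPM. Counted as UMIs per cell, Csf2rb in cKIT- cells was higher in the highest bin than in the squares.

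Cycling and Kit divided the Mcpt8 gate further. Cells with at least 2 UMIs of Mki67, Top2a, Cdk1 and Ccnb1, genes of dividing cells, held less Csf2rb than cells with none, at 254 against 315 CPM in cKIT+ and 315 against 485 CPM in cKIT- cells. Csf2rb2 was at 125 against 157 CPM and 207 against 297 CPM. Il3ra differed little, at 169.2 against 168.8 CPM in cKIT+ and 271 against 260.2 CPM in cKIT- cells. Both splits rest on UMI counts and so also on depth. Counted as UMIs per cell, both beta chains were higher in cells with cycling genes in both sorts. In cKIT- cells Csf2rb had 3544 UMIs in 1024 cells with cycling genes and 2652 in 997 without. The median cell with cycling genes had 16524 UMIs against 10193 without in cKIT+ and 10784 against 4658 in cKIT- cells, where Ccl3 was also at 947 against 1777 CPM, and the part of these was not tested. In cKIT+ cells with at least 2 Kit UMIs, at a median of 19908 UMIs against 13577 in those with none, Il3ra was at 139 CPM against 177 CPM, and Csf2rb2 at 93.6 against 137 CPM. Cells without a Kit UMI were 2453 of the 3052 cKIT+ and 2183 of the 2201 cKIT- cells of the gate. Among them the cKIT- to cKIT+ ratios were 1.53 for Il3ra, 1.37 for Csf2rb and 1.73 for Csf2rb2. Because they make up most of the gate, likeness to its ratios cannot show whether Kit level matters.

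Of the ligand genes Il3, Il5 and Csf2, none reached 10 CPM in any group compared, and the 1 UMI found was of Csf2 in a cKIT- cell of the Mcpt8 gate. All 17 receptor-proximal pathway genes, kinases, adaptors and STATs, could be compared. Over the libraries 2 of them were past 2-fold lower in cKIT+ and none higher, a share near the 9.06% of all genes. These were Jak2, the kinase carried by the beta chain, at 60.1 against 145 CPM, and the adaptor Gab2, at 11.3 against 28.0 CPM. The median log2 ratio of all 17 pathway genes was -0.40, against -0.03 for all genes. Within the Mcpt8 gate none was past 2-fold between the sorts, with a median of -0.32 against -0.04. In the Elane gate 4 of the 17 were past 2-fold lower than in the Mcpt8 gate (9.93% of all genes), among them Jak2 at 16.7 against 82.1 CPM. In the same comparison 1 was higher (6.04% of all genes), the ubiquitin ligase gene Cbl at 52.4 against 19.7 CPM. The median log2 ratio of the 17 was -0.28 against 0.00 for all genes. In the Prg2 gate 2 were higher (7% of all genes), Cbl at 78.5 CPM and Stat3 at 63.4 against 31.4 CPM, and in the Gzmb gate 3 were (12.8% of all genes), with Stat3 at 100.4 CPM and the phosphatase gene Inpp5d at 107 against 40.9 CPM. The list's median log2 ratio was 0.32 against 0.10 for all genes in the Prg2 gate and 0.56 against 0.20 in the Gzmb gate.

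Of 11 targets and feedback genes of STAT5, 5 reached 10 CPM within the Mcpt8 gate, and 2 of these were past 2-fold lower in cKIT+, where 4.82% of all genes were. The cytokine gene Osm was at 8.82 against 48.0 CPM and the kinase gene Pim1 at 79.4 against 168 CPM. The median log2 ratio of the 5 was -0.54 against -0.04 for all genes. The same pair was past 2-fold lower over the whole libraries. In the Mcpt8-low FcεRI gate of the cKIT- library Csf2rb was at its highest CPM among the gates. There 4 of 6 were past 2-fold higher than in the Mcpt8 gate, with Osm at 196 CPM and Pim1 at 442 CPM, where 8.73% of all genes were. The survival gene Bcl2 was the 1 past 2-fold lower, at 27.0 against 97.5 CPM, where 14.2% of all genes were. The median log2 ratio of the 6 was 1.30 against 0.08 for all genes. Any link between the level of Csf2rb and these genes was not tested. The 2 gates also differed in depth, at medians of 2992 and 7710 UMIs a cell. Bcl2 was also lower in the Prg2 gate, at 55.5 against 149 CPM, and in the Elane and Gzmb gates, and in the Gzmb gate Socs2, a feedback inhibitor, was at 16.7 against 0.484 CPM.

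Among 18 other cytokine receptor chains, 8 reached 10 CPM within the Mcpt8 gate. Of these, 3 were past 2-fold lower in cKIT+, where 4.82% of all genes were, and 1 was higher, where 4.2% were. The latter was Kit at 16.3 against 1.05 CPM. Cells were sorted on its protein, and it met the 10 CPM minimum only through cKIT+ cells. Its call was thus fixed and is not a result beside the 4.2%. The median log2 ratio of the 8 chains was -0.58 against -0.04 for all genes. Over the libraries, Il7r, the IL-7 receptor alpha chain, was at 4.35 CPM in cKIT+ and 75.6 CPM in cKIT-, and the IL-18 receptor chain Il18r1 at 4.69 and 72.9 CPM. The Elane gate held Csf3r, the granulocyte colony-stimulating factor receptor, at 50.1 CPM against 0.858 CPM in the Mcpt8 gate and Il1rl1, the IL-33 receptor, at 1.63 against 52.9 CPM. The Gzmb gate held Il9r, the IL-9 receptor, at 10.2 against 0.286 CPM and Il2rg, the common gamma chain, at 317 against 49.9 CPM, and the Prg2 gate held the IL-18 receptor chain Il18rap at 6.94 against 101 CPM.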

How the data were processed

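The 2 libraries were deposited as matrices of UMI counts, 1 whole number per gene and cell, which the authors made with Cell Ranger 3.0.2 on mm10 per the submitters' processing notes. The labels and the paper's methods differ on the kit version. Counts were used as deposited. The cell filter left out the 1% of cells with most and with fewest genes and the 1% with most UMIs. Only genes seen in at least 40 cells counted towards this filter. All 31053 genes were kept for the levels and ratios, and doublets were not called. Gates needed at least 5 UMIs and 5000 (Mcpt8, Elane), 1000 (Prg2) or 500 (Gzmb) CPM of the cell, and cells passing several were left out. Reference gates used hemoglobin (20000), C1q (2000) and Cd79 (500) genes.

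UMIs were summed per group and given as CPM with exact Poisson intervals, ratios with exact binomial ones and shares with Clopper-Pearson ones. Genes of at least 10 CPM in a compared group were counted past 2-fold. The 5 chains were named in every gate, and at most 2 genes per list and direction by ratio among genes past 2-fold. The members and lists were chosen with earlier results of these data known. The FcεRI (500), S100a8/S100a9 (5000) and F13a1/Csf1r/Ccr2 (500) gates on cells outside the other gates and the Prg2 and Cd200r3 splits were chosen after values were seen. Alternatives changed cell filters, weights, scaling, depth, gate thresholds and gene minimums. Gene IDs matched GENCODE M21 for 30934 of 31053. Python 3.11.15, numpy 2.4.6, scipy 1.17.1, pandas 2.3.3 and matplotlib 3.10.9 were used, and the scripts were tested on simulated data.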

Additional observations from a re-analysis of the deposited data

How the results depend on the processing

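No paired analysis was possible because each sort has 1 library and no result comes from a test. Of 203 ratios of the chains under alternative settings, 157 moved by less than their interval and 7 turned direction. As UMIs per cell, an alternative chosen after seeing the data, 5 did, with log2 ratios of cKIT+ to cKIT- of 0.0905 for Il3ra and 0.0148 for Csf2rb over whole libraries and of 0.19 for Il3ra, 0.38 for Csf2rb and 0.01 for Csf2rb2 in the Mcpt8 gate. The other 2, in the Gzmb gate, were Csf2ra with thinning (-0.56) and Csf2rb2 under median-ratio scaling (-0.06). As UMIs per cell 1 chain was past 2-fold over the libraries, against 3 in CPM. It was Csf2ra, higher in cKIT+ (log2 ratio 1.79), and none of the 3 chains past 2-fold in CPM stayed so. Under equal weight per cell, thinning, or with the 5% deepest cells left out, 2 chains were past 2-fold over the libraries. Between the sorts, 1 chain and 1090 genes were past 2-fold when cells were gated on Fcer1a, Ms4a2 and Cd200r3 in place of Mcpt8, also chosen after seeing the data, against 0 chains and 696 genes in the Mcpt8 gate. In the Prg2 gate 1998 genes were past 2-fold with thinning to 2000 UMIs and 1853 with equal weight per cell, against 1050. With a minimum of 10 UMIs and none on CPM, the counts of genes past 2-fold were 4175 for the libraries, 2420 for the sorts in the Mcpt8 gate, and 3219, 3427 and 3936 for the Prg2, Elane and Gzmb gates, and with a minimum of 50 CPM 569, 278, 343, 502 and 587. They were 1313, 696, 1050, 1243 and 1659 at 10 CPM. In the Gzmb gate 63.9% of genes past 2-fold were higher, and 49.2% under median-ratio scaling. In the Mcpt8 gate 46.6% were higher in cKIT+, and 35.5% without the 10 most abundant genes. The median log2 ratio of all genes was 0.10 in the Prg2 and 0.20 in the Gzmb gate. With 1 library per sort, depth and sort cannot be told apart.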

Other observations

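Over 12 groups of cells, the genes whose log2(CPM + 1) was most like that of a chain were described by Pearson's r, with no test. Groups share their library, and the ungated groups also hold the cells of the reference gates. The most alike genes were Arap3 (0.94) for Il3ra, Adipor2 (0.97) for Csf2rb, Acss2 (0.97) for Csf2rb2, App (0.96) for Csf2ra and Frs2 (0.91) for Il5ra, among 10384 genes. Il5ra was at 23.0 CPM in the Prg2 gate and at most 4.22 CPM in the other groups, so its r rests mostly on 1 group. Between chains r was 0.92 for Csf2rb and Csf2rb2, 0.90 for Il3ra and Csf2rb, and 0.23 for Csf2ra and Il3ra.

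A rest of 155 cKIT- cells was given to no gate, because they passed either none or several of the reference and later gates. In this mixed rest Csf2rb was at 927 CPM, Csf2rb2 at 339 CPM and Il3ra at 103 CPM. At 2000 UMIs a cell, the variance of Csf2rb UMIs between cells was 1.69 times their mean in the cKIT+ Mcpt8-low FcεRI gate and 1.16 times in its cells without Cd200r3, against 1.08 in the cKIT+ Mcpt8 gate.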
